A study of Mus musculus with 6 samples.

Results

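The transcripts described are 7 genes of hemoglobin and the red cell, namely Hba-a1, Hba-a2, Hbb-bs, Hbb-bt, Alas2, Slc4a1 and Bpgm, taken by symbol from the 54532 genes of the deposited table. They were read as a measure of how much red-cell RNA each heart sample held. The series holds 6 RNA-seq libraries from the myocardium of wild-type C57BL/6 mice aged 18 weeks with hypertrophic hearts. In the 3 control samples the adeno-associated virus AAV9 carried EGFP, and in the 3 TuD samples it carried anti-miR-199a tough decoys, RNAs built to sequester the microRNA miR-199a. Both groups were therefore hypertrophic and both had received AAV9. How hypertrophy was brought about, the promoter behind each vector insert, the sex of the mice, any perfusion of the hearts and whether the samples are separate animals are not given in the sources used here, so p-values measure only the spread between samples.

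Adult mouse hemoglobin is a tetramer of alpha chains, encoded by Hba-a1 and Hba-a2, and beta chains, encoded by Hbb-bs and Hbb-bt in C57BL/6 mice. Each chain holds a heme, whose synthesis in red-cell precursors starts with the enzyme encoded by Alas2. Slc4a1 encodes band 3, the anion exchanger of the red-cell membrane, and Bpgm encodes the mutase that makes bisphosphoglycerate, which lowers the oxygen affinity of hemoglobin. Mature mammalian red cells have no nucleus, and young ones leave the marrow with globin mRNA still in them, so globin mRNA is commonly found in tissue that contains blood.

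The paired globin genes are nearly the same in sequence, which bears on how reads can be divided between them. The coding sequences of Hba-a1 and Hba-a2 have 429 bases each and differ at 1 of them, coding base 381. Those of Hbb-bs and Hbb-bt have 444 bases each and differ at 1, coding base 417. The stretches around these bases are shown because they hold the entire coding difference within each pair. They are 60 bases long, from coding base 351 for the alpha pair and 385 for the beta pair, with the differing base in capitals, and were read from the GENCODE M21 transcripts (GRCm38).
Hba-a1: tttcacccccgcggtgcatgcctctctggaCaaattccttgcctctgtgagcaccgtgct
Hba-a2: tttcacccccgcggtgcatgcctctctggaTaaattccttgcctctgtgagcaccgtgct
Hbb-bs: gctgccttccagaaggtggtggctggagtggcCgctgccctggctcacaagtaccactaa
Hbb-bt: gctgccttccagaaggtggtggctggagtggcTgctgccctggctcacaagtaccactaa

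The longest run shared by the whole transcripts was 415 bases in the alpha pair and 430 bases in the beta pair. Of all windows of 100 bases, 56.5% in Hba-a1 and 74.5% in Hba-a2 occurred in the other alpha transcript. The corresponding shares were 62.6% in Hbb-bs and 54.8% in Hbb-bt. How the authors counted reads that match several genes is not given in the sources used here, so the division within each pair is uncertain. Hba-a1 and Hbb-bs shared no window of 25 bases, so these genes can be told apart. Hba-a2 and Hbb-bt were not compared with the other chain type.

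The promoters of the pairs differed in how alike they were. RefSeq promoters (GRCm38.p6) were found for 6 of the 7 genes, and Slc4a1 was the gene without one. In the 250 bases before the start, the longest identical run was 247 bases for Hba-a1 and Hba-a2, and 14 bases for Hbb-bs and Hbb-bt. Both strands of these 250 bases were searched for the core letters of 4 known promoter elements, which are TATAA for the TATA box, CACCC for the box bound by KLF factors, CCAAT for the box of that name and GATAA for the site of GATA factors. All 4 globin promoters held all 4 motifs. Across 32851 mouse promoters, TATAA was present in 22.8%, CACCC in 52.0%, CCAAT in 33.8% and GATAA in 22.6%, and the first 3 of these occurred together in 3.28%. The Alas2 promoter held all but CCAAT, and the Bpgm promoter held CCAAT alone. The TATAA match nearest the start lay 27 to 30 bases before it in the globin promoters. In Alas2 the TATAA matches lay 207 and 208 bases before the start. One stretch of 120 bases is shown for each globin type, with the matches in capitals, as the stretch nearest the start that lies before the annotated gene. The Hba-a2 stretch holds TATAA and also CACCC and CCAAT, while the TATAA and GATAA matches of Hbb-bt lie outside its stretch. The Hba-a2 stretch is at chr11:32296369-32296488 on the plus strand and the Hbb-bt stretch at chr7:103813997-103814116 on the minus strand. The last 2 bases of the Hbb-bt stretch belong to a CCAAT match that runs past its end, and ATTGG is CCAAT on the other strand.
Hba-a2: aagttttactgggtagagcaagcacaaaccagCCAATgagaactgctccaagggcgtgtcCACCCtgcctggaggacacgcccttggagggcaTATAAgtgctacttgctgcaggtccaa
Hbb-bt: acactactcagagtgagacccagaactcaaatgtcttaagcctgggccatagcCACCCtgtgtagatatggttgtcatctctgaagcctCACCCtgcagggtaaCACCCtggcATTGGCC

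The libraries held 18.0 to 18.2 M reads (M, megareads) in the control group and 15.2 to 16.7 M in the TuD group, recovered from the FPKM. FPKM is fragments per kilobase of gene per megaread. The divisor recovered from the deposited FPKM was not these read totals. It was 18.8 to 19.4 M in the controls and 14.4 to 16.8 M in the TuD libraries. Values were then divided by a size factor for each library (normalised FPKM), which takes out a constant factor of that kind. Cardiomyocyte markers were abundant in every library, with Myh6, the main myosin heavy chain of the adult mouse heart, at 3546 to 4180 normalised FPKM. TuD replicate 3 stood apart in neutrophil markers and in the immunoglobulin light chain gene Igkc. The summed normalised FPKM of 12 neutrophil markers was 183 there and 3.36 to 8.10 in the other 5 libraries, and that of 8 B cell markers was 403 against 7.60 to 13.1. Igkc alone was 398 of those 403, and it was the 1 B cell marker of 8 that was highest in TuD replicate 3. Transcripts of 4 Y-linked genes had a summed FPKM of 8.32 to 12.5 in the controls and TuD replicate 3, but 0.0254 and 0.00711 in TuD replicates 1 and 2. Mitochondrial transcripts took 5.31% to 11.96% of reads in the controls and 11.1% to 17.5% in the TuD libraries. In tissue RNA a change in the number of cells and a change in RNA per cell cannot be told apart.

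Summed over the 4 genes, globin transcripts were highest in TuD replicates 3 and 2 and at the level of the controls in TuD replicate 1. The sums in control replicates 1, 2 and 3 were 1314, 1599 and 1137 normalised FPKM, and those in TuD libraries 1 to 3 were 1367, 2599 and 3267. Relative to the control mean, the TuD libraries were at 1.01, 1.93 and 2.42 times, and the controls ranged from 0.842 to 1.18 times. Globin reads were 0.0918% to 0.132% of all reads in the controls and 0.0986%, 0.189% and 0.252% in TuD libraries 1 to 3. The high globin level of the TuD group was thus carried by 2 of its 3 libraries.

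Of the 7 genes, 6 passed the filter on low values and were tested. The filter asked for an FPKM of 1 or more in 3 or more libraries. The test was limma's, with Benjamini-Hochberg adjustment over 10460 genes. The alpha genes Hba-a1 and Hba-a2, 2 of the 6, were higher in TuD libraries with an adjusted p below 0.05, and none fell. In the same fit 14.8% of all tested genes rose and 14.2% fell.

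**Figure D1:**
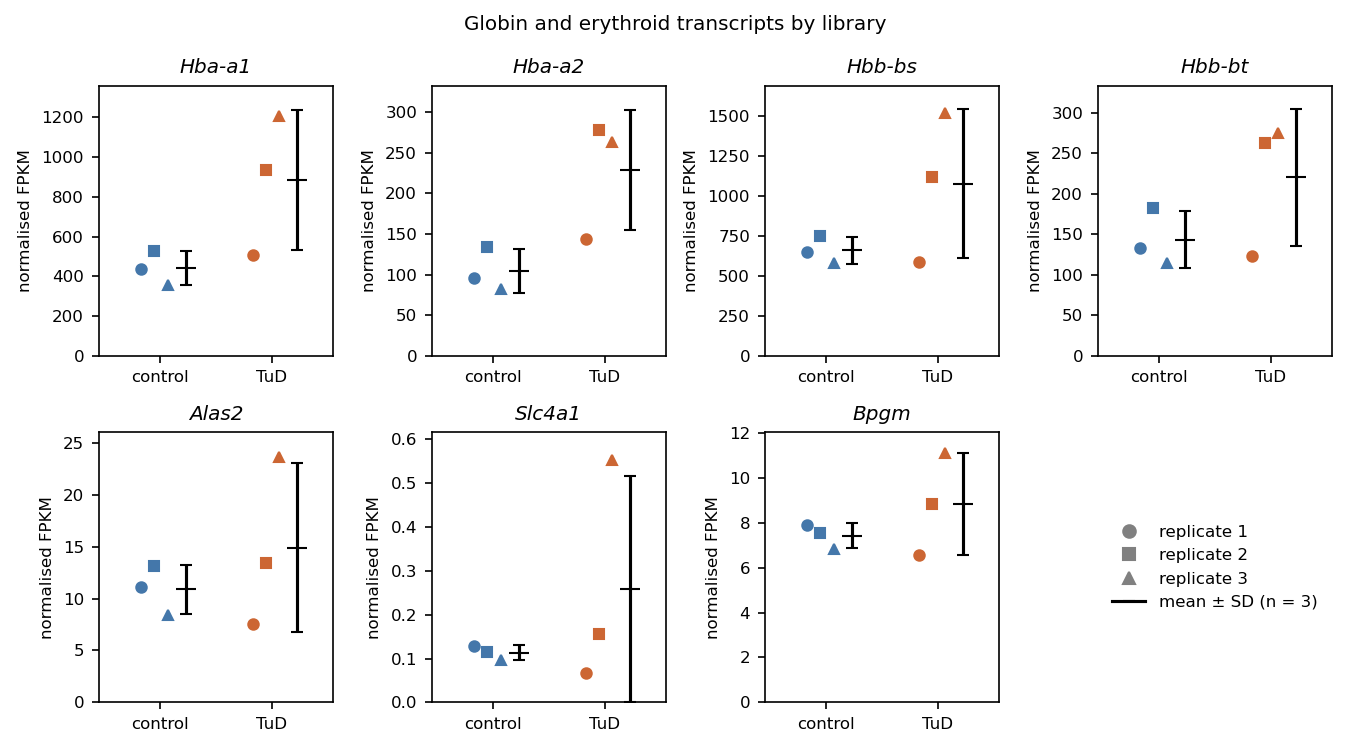
Normalised FPKM of the 7 transcripts on the y axis, in control (blue) and TuD (orange) libraries, with marker shape for the replicate number and bars for the mean ± SD (n = 3). TuD replicates 2 and 3 lie above all controls in each panel, and TuD replicate 1 does so for Hba-a2.

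Hba-a2 (ENSMUSG00000069917, chr11:32296489-32297298, plus strand, 3 exons) encodes an alpha chain and had 1047 to 2926 reads per library. Its normalised FPKM was 96.2, 135 and 82.8 in controls 1 to 3, and 143, 278 and 264 in TuD libraries 1 to 3. Every TuD library was above every control, though TuD replicate 1 was only just so. The same non-overlap in the higher direction was seen in 23.5% of all tested genes. The mean rose from 105 ± 26.8 to 228 ± 73.9 (SD, n = 3 each), a log2 fold change of 1.09 ± 0.27 (SE; limma, Benjamini-Hochberg adjusted p = 0.0207). The call was lost without control replicate 1 (adjusted p = 0.0612), control replicate 3 (0.0694) or TuD replicate 2 (0.0644). The call was also lost with Y-linked transcripts as a covariate, as given with the other genes after Bpgm.

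Hba-a1 (ENSMUSG00000069919, chr11:32283511-32284465, plus strand, 3 exons) lies before Hba-a2 on the same strand, encodes the same type of chain, and had 5482 to 16315 reads per library. Its normalised FPKM was 437, 529.6 and 356 in controls 1 to 3, and 509.7, 937 and 1207 in TuD libraries 1 to 3. Here TuD replicate 1 fell among the controls, below control replicate 2, so the groups overlapped. The mean rose from 441 ± 86.8 to 885 ± 352 (SD, n = 3 each), a log2 fold change of 0.93 ± 0.30 (SE; limma, Benjamini-Hochberg adjusted p = 0.0488). This value is close to the threshold, and leaving out any library except TuD replicate 1 ended the call, with adjusted p-values of 0.0739 to 0.142 after such removals.

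Hbb-bs (ENSMUSG00000052305, chr7:103826534-103828096, minus strand, 3 exons) is the major beta globin gene by level here. It was the most abundant of the 7 transcripts, 64th of all genes by mean normalised FPKM. Its normalised FPKM was 648, 752 and 584 in controls 1 to 3, and 591, 1121 and 1522 in TuD libraries 1 to 3. TuD replicate 1 lay between control replicates 3 and 1, and the other TuD libraries lay above all of them. The means were 661 ± 84.7 and 1078 ± 467 (SD, n = 3 each), and the log2 fold change of 0.61 ± 0.31 (SE) did not pass the test (limma, Benjamini-Hochberg adjusted p = 0.170).

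Hbb-bt (ENSMUSG00000073940, chr7:103812524-103813996, minus strand, 3 exons) is the other adult beta globin gene. Its normalised FPKM was 133, 183 and 115 in controls 1 to 3, and 123, 262 and 274 in TuD libraries 1 to 3, with the libraries in the same order as for Hbb-bs. The log2 fold change was 0.56 ± 0.31 (SE), with means of 143 ± 35.5 and 220.0 ± 84.2 (SD, n = 3 each; limma, Benjamini-Hochberg adjusted p = 0.204). Without TuD replicate 1, the TuD library lowest in both, both beta genes passed the test, Hbb-bs at 0.99 (adjusted p = 0.0181) and Hbb-bt at 0.93 (adjusted p = 0.0239). Without TuD replicate 3 they were at 0.31 (adjusted p = 0.392) and 0.35 (adjusted p = 0.421). Neither passed after the removal of any other single library. The outcome thus depended on the library left out, and a missed threshold in all 6 libraries does not show equal beta levels.

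Within each library, alpha and beta transcripts were in a different proportion in the 2 groups. The ratio of summed alpha FPKM to summed beta FPKM was 0.683, 0.711 and 0.629 in controls 1 to 3, and 0.915, 0.878 and 0.819 in TuD libraries 1 to 3. The means were 0.674 ± 0.0417 and 0.871 ± 0.0486 (SD, n = 3 each), and every TuD library was above every control. TuD replicate 1, whose globin total was within the control range, had the highest ratio. The ratio runs over chosen genes and is given without a test. Counted in reads, the mean ratios were 0.699 and 0.899. The alpha transcripts also had more G and C, 57.2% in Hba-a1 and 56.9% in Hba-a2 against 51.3% in Hbb-bs and 50.8% in Hbb-bt. After a correction of fold changes for gene length and GC content, the log2 fold changes were 0.61 and 0.73 for Hba-a1 and Hba-a2, and 0.22 and 0.14 for Hbb-bs and Hbb-bt.

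The split within each pair overlapped between the groups. Hba-a1 made up 82.0%, 79.7% and 81.1% of alpha FPKM in controls 1 to 3, and 78.1%, 77.1% and 82.1% in TuD libraries 1 to 3. Hbb-bs made up 80.4% to 83.6% of beta FPKM in the controls and 81.0% to 84.7% in the TuD libraries. These shares rest on reads that the near-identical pairs may not divide correctly.

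**Figure D2:**
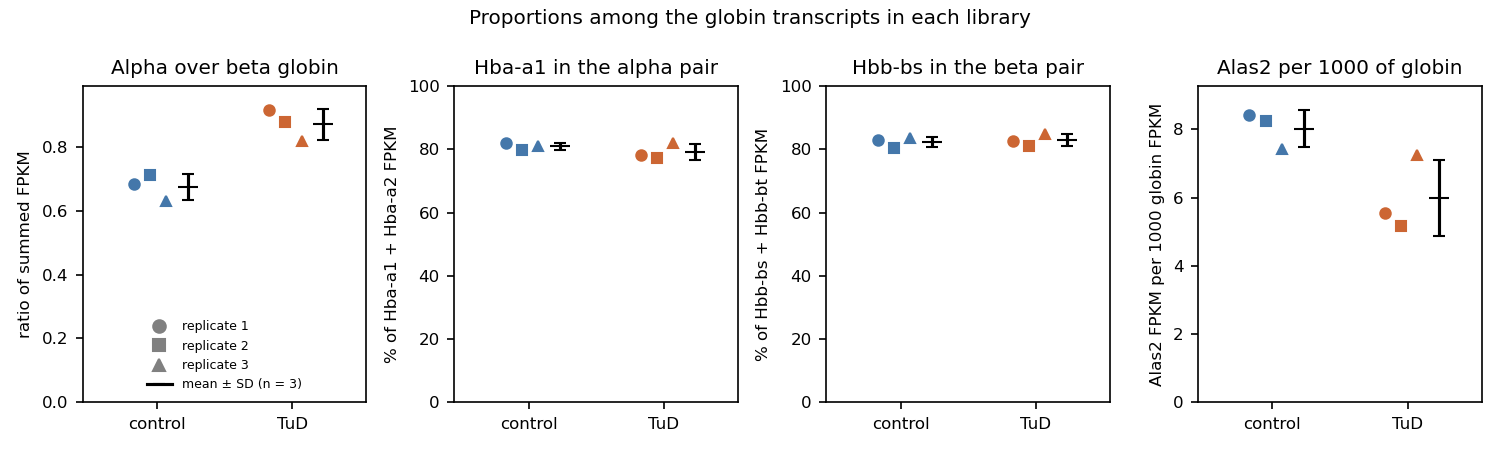
Proportions in control (blue) and TuD (orange) libraries, with marker shape for the replicate number and bars for the mean ± SD (n = 3). The y axes show the alpha to beta ratio of FPKM, the % of alpha FPKM from Hba-a1, the % of beta FPKM from Hbb-bs, and Alas2 FPKM per 1000 of summed globin FPKM. The groups separate in the first panel (0.629 to 0.711 against 0.819 to 0.915) and the last, and overlap in the panels between them.

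Gene length moved with the group difference across the whole table. All 4 globin genes have 667 to 812 bases. Among 313 tested genes of 600 to 900 bases, 41.9% rose and the median log2 fold change was 0.50, against 0.0090 over all 10460. After a correction for length, Hba-a1 was at 0.50 (adjusted p = 0.255) and Hba-a2 at 0.61 (adjusted p = 0.122), so neither passed. Hbb-bs was then at 0.16 and Hbb-bt at 0.088. Rescaling to TPM, in which the values of each library have the same sum, lowered the median of all genes to -0.36 and gave 0.55 for Hba-a1 (adjusted p = 0.188) and 0.71 for Hba-a2 (adjusted p = 0.0731). Both stood above that median, and neither passed.

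Alas2 (ENSMUSG00000025270, chrX:150547375-150570638, plus strand, 11 exons) encodes the erythroid form of the enzyme that starts heme synthesis, and had 278 to 947 reads per library. Its normalised FPKM was 11.1, 13.2 and 8.43 in controls 1 to 3, and 7.58, 13.5 and 23.7 in TuD libraries 1 to 3. TuD replicate 1 was the lowest of all 6 libraries and TuD replicate 3 the highest. The means were 10.9 ± 2.37 and 14.9 ± 8.14 (SD, n = 3 each), and the log2 fold change of 0.32 ± 0.35 (SE) did not pass the test (limma, Benjamini-Hochberg adjusted p = 0.525). It was -0.079 without TuD replicate 3 and -0.059 on the TPM scale.

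On the FPKM scale, without correction for length, Alas2 was lower relative to globin in the TuD libraries. Per 1000 of summed globin FPKM it stood at 8.43, 8.24 and 7.41 in controls 1 to 3, and at 5.55, 5.18 and 7.25 in TuD libraries 1 to 3. The groups did not overlap, though TuD replicate 3 was close to the lowest control. The ratio sets a gene of 2403 bases against globin genes of 667 to 812 bases. After the length correction the log2 fold change of Alas2 was 0.22. Those of Hbb-bs and Hbb-bt were then 0.16 and 0.088, and those of Hba-a1 and Hba-a2 were 0.50 and 0.61. Alas2 thus lay above the beta genes and below the alpha genes after that correction. The span of Alas2 lies inside that of Apex2, a DNA repair gene on the opposite strand, and 311 of its 2403 exonic bases are also exonic in Apex2. Apex2 stood at 1.26 ± 0.0827 and 0.779 ± 0.170 normalised FPKM (SD, n = 3 each). The strand setting of the counting is not given in the sources used here, so reads on those shared bases cannot be told apart.

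Slc4a1 (ENSMUSG00000006574, chr11:102348824-102366203, minus strand, 20 exons), the band 3 gene, was near the limit of detection and did not pass the filter. It had 12, 11 and 9 reads in controls 1 to 3, and 5, 11 and 45 in TuD libraries 1 to 3. As normalised FPKM these were 0.129, 0.114 and 0.0971, and 0.0670, 0.156 and 0.553. The exact 95% Poisson interval of TuD replicate 3 was 0.403 to 0.740 and those of the other 5 libraries lay between 0.0218 and 0.279, so that library was higher beyond counting error, which is all these intervals cover. In a fit without the filter the log2 fold change was 0.25 ± 0.22 (SE; limma, Benjamini-Hochberg adjusted p = 0.543). The 0.5 added before the log exceeded the level in every library but TuD replicate 3, so this value is compressed towards 0. The TuD mean was 2.28 times the control mean, with TuD replicate 3 the highest library.

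Bpgm (ENSMUSG00000038871, chr6:34476207-34505613, plus strand, 3 exons), the bisphosphoglycerate mutase gene, had 359 to 663 reads per library. Its normalised FPKM was 7.91, 7.53 and 6.82 in controls 1 to 3, and 6.56, 8.84 and 11.1 in TuD libraries 1 to 3. As for Alas2 and Slc4a1, TuD replicate 1 was the lowest library and TuD replicate 3 the highest. The means were 7.42 ± 0.553 and 8.83 ± 2.27 (SD, n = 3 each), with a log2 fold change of 0.21 ± 0.18 (SE) that did not pass the test (limma, Benjamini-Hochberg adjusted p = 0.395). It was -0.16 on the TPM scale. Per 1000 of summed globin FPKM it lay between 4.71 and 6.02 in the controls and between 3.40 and 4.80 in the TuD libraries. Bpgm has 3588 bases, far more than the globin genes, and after the length correction its log2 fold change was 0.22.

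With the presence of Y-linked transcripts as a covariate, TuD replicate 3 was the TuD library left to be set against the controls, because it alone of the TuD group shared their Y-linked status. The log2 fold changes were then higher for all 6 tested genes. They were 1.47 for Hba-a1 (adjusted p = 0.0392), 1.36 for Hba-a2 (0.0553), 1.21 for Hbb-bs (0.0542), 0.96 for Hbb-bt (0.144), 1.11 for Alas2 (0.0616) and 0.55 for Bpgm (0.0876), by limma with Benjamini-Hochberg adjustment.

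**Figure D3:**
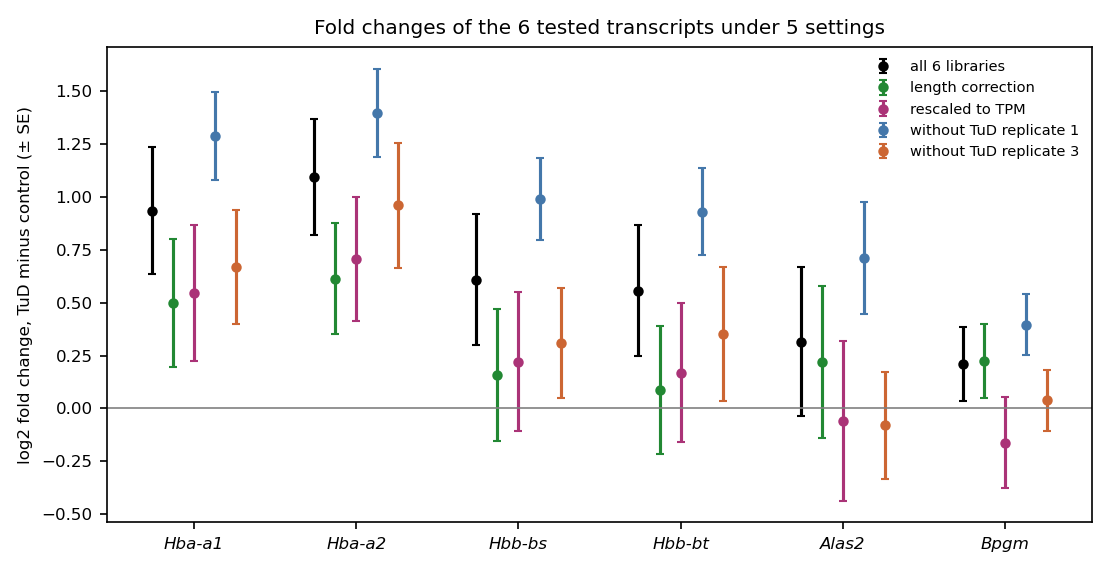
Log2 fold changes (TuD minus control, y axis) with SE bars for the 6 tested transcripts in all 6 libraries (black), after length correction (green), on the TPM scale (purple), without TuD replicate 1 (blue) and without TuD replicate 3 (orange). The globin genes stay above 0 in all 5 settings. Alas2 falls to -0.079 without TuD replicate 3 and to -0.059 on the TPM scale, where Bpgm is at -0.16.

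Of 38 further genes of red-cell maturation, membrane and transcription found in the table, 19 were tested, of which 1 rose and 3 fell, beside 14.8% and 14.2% of all tested genes. The other 15 did not pass, and the median log2 fold change was 0.023. The 3 that fell were Sptb (erythroid and muscle beta spectrin; 15.9 ± 1.43 to 7.53 ± 1.01 normalised FPKM, -1.04 ± 0.13, adjusted p = 0.00253), Tmod1 (a cap of actin filaments, also in heart sarcomeres; 62.5 ± 4.83 to 26.0 ± 10.5, adjusted p = 0.00759) and Epor (the erythropoietin receptor; 1.33 ± 0.238 to 0.786 ± 0.106, adjusted p = 0.0401). The 1 that rose was Prdx2, a peroxide-removing enzyme abundant in red cells (153 ± 8.96 to 203 ± 24.3, adjusted p = 0.0401; all by limma with Benjamini-Hochberg adjustment). Genes of nucleated red-cell precursors were at or near 0: all 6 libraries together held 11 reads of the transcription factor gene Klf1 and 7 of Gata1, and none of Icam4, Car1, Hemgn or Pklr.

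The remaining hemoglobin chains were not detectable at a level that could be tested. Hba-x, Hbb-bh1, Hbb-bh2 and Hbb-bh0 had no reads in any library, and the embryonic gene Hbb-y had 1 read in all. The theta genes Hbq1a and Hbq1b had 7 and 3 reads in all. Myoglobin, the oxygen-binding globin of muscle, did not pass the test. Mb was at 5914 to 7853 normalised FPKM in the controls and 7410.4 to 7845 in the TuD libraries (log2 fold change 0.11, limma with Benjamini-Hochberg adjusted p = 0.677). Cygb, cytoglobin, a globin of connective tissue cells, stood at 42.1 ± 3.42 and 50.1 ± 7.63 and did not pass either (adjusted p = 0.210 by the same test).

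Of 13 tested genes of the pathway and its mitochondrial carriers other than Alas2, 2 fell and none rose, where 14.2% of all tested genes fell and 14.8% rose. The other 11 did not pass, and the median log2 fold change was -0.23. Those that fell were Abcb10, an inner mitochondrial membrane transporter (14.7 ± 1.51 to 7.50 ± 1.16 normalised FPKM, adjusted p = 0.00393), and Cpox, coproporphyrinogen oxidase (7.03 ± 0.822 to 3.95 ± 0.646, adjusted p = 0.00794). Ppox, protoporphyrinogen oxidase (2.88 ± 0.180 and 3.71 ± 0.163, adjusted p = 0.0589), did not pass. Alas1, the form of the enzyme found in all tissues, stood at 77.2 ± 11.1 and 59.9 ± 11.96 and did not pass (limma, Benjamini-Hochberg adjusted p = 0.134). Of 8 tested genes of heme and hemoglobin clearance, none fell and 1 rose, with a median log2 fold change of 0.099. The riser was Blvrb, which encodes a biliverdin reductase abundant in red cells (5.02 ± 0.551 to 9.17 ± 2.52, adjusted p = 0.0171). The heme transporter gene Slc48a1 (34.0 ± 1.61 and 28.4 ± 0.397, adjusted p = 0.0692), the other biliverdin reductase gene Blvra (adjusted p = 0.299) and the heme oxygenase gene Hmox2 (adjusted p = 0.472) did not pass, all by limma with Benjamini-Hochberg adjustment. Hp, the plasma hemoglobin binder haptoglobin, was at 9.09 in TuD replicate 3 and at 0.389 to 1.35 elsewhere. None of 5 paralogs of Slc4a1 and Bpgm passed the test, and their median was -0.071. The smallest adjusted p-values among them were those of the glycolytic mutase genes Pgam1 (54.7 ± 15.0 and 38.2 ± 1.83, adjusted p = 0.0819) and Pgam2 (1104 ± 148 and 1337 ± 355, adjusted p = 0.413), followed by the bicarbonate transporter and anion exchanger genes Slc4a4 (0.462) and Slc4a3 (0.603).

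The summed normalised FPKM of 12 platelet markers was 33.9, 58.7 and 24.2 in controls 1 to 3. It was 31.4, 53.4 and 46.0 in TuD libraries 1 to 3, so it was highest in a control. Pf4 alone was 26.1, 45.2 and 34.2 in TuD libraries 1 to 3, beside 17.4 to 27.7 in the controls, so the groups overlapped. None of the 5 tested platelet markers passed the test. Log2 fold changes were 0.65 for Pf4 (limma, Benjamini-Hochberg adjusted p = 0.0593), -0.57 for Ppbp, -0.56 for Itga2b, -1.09 for Gp9 and -0.96 for Tubb1. Of the 12 markers, 10 were highest in control replicate 2. The summed B cell markers, at 7.60, 9.18 and 7.77 in controls 1 to 3, then 8.35, 13.1 and 403 in TuD libraries 1 to 3 were highest in TuD replicate 3 through Igkc, and 4 of the 8 markers were highest in TuD replicate 2. Of the 12 neutrophil markers, 10 were highest in TuD replicate 3, with the calprotectin genes S100a8 and S100a9 at 58.5 and 89.9. TuD replicate 2, with 1.93 times the control mean of globin, was at 5.87 for summed neutrophil markers, beside 3.36 to 7.77 in the controls. Its B cell sum of 13.1 was above every control. Of 2 tested B cell markers, Ighm passed as higher in TuD libraries, beside 14.8% of all tested genes. Its normalised FPKM was 2.63 ± 0.607 and 4.67 ± 1.12 (SD, n = 3 each; limma, Benjamini-Hochberg adjusted p = 0.0274). Igkc did not pass (adjusted p = 0.308 by the same test). The neutrophil granule gene Elane had no reads. Summed monocyte markers were at 3.78 in TuD replicate 3 and at 0.252 to 1.41 in the other libraries. Of these 6 markers, 5 were highest in TuD replicate 3, but all were too low to be tested. Summed T and NK cell markers ran from 1.51 to 3.84 over all libraries, highest in TuD replicate 3. Endothelial sums ran from 217 to 319, lowest in that library. Of 7 cardiomyocyte markers, 4 passed the test as higher in TuD libraries and none as lower, beside the 14.8% and 14.2% of all tested genes. Their sums were 13089 to 14691 normalised FPKM in the controls and 18260.2 to 21528 in the TuD libraries. The part of these cell types in the globin values was not tested. Without control replicate 2 and TuD replicate 3 together, the libraries highest in summed platelet markers and in summed neutrophil markers, Hba-a1 was at 0.81 (limma, Benjamini-Hochberg adjusted p = 0.0849) and Hba-a2 at 1.16 (adjusted p = 0.0320).

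**Figure D4:**
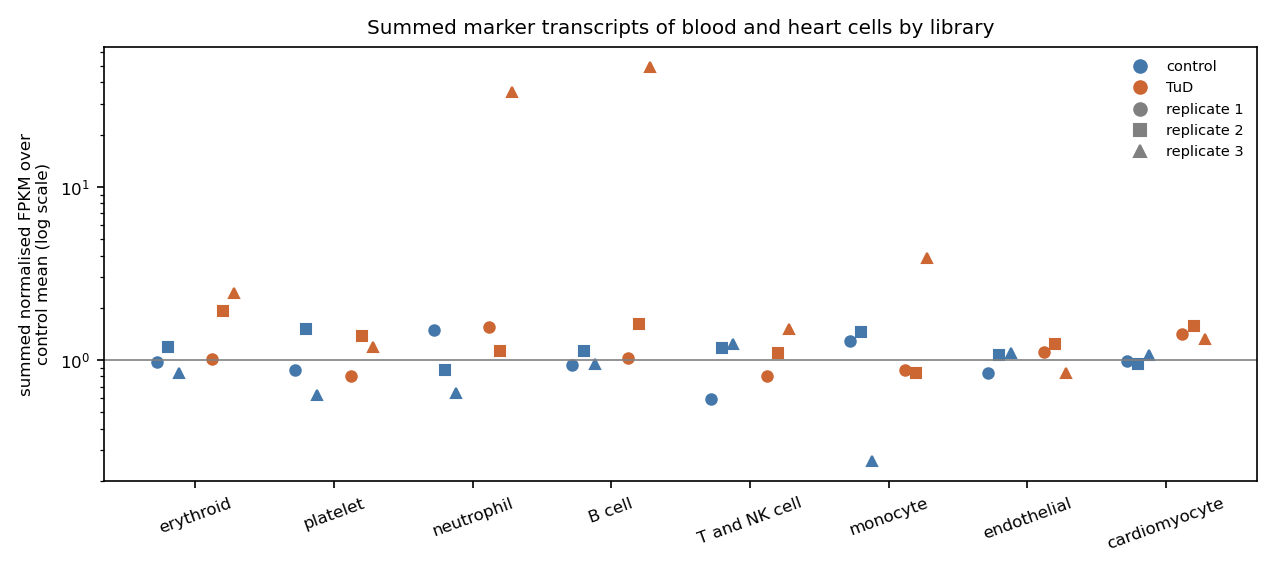
Summed normalised FPKM of marker genes in each library over the control mean (y axis, log scale) for 8 cell types, with control in blue, TuD in orange and marker shape for the replicate number. TuD replicate 3 stands apart for neutrophil markers and, through the single gene Igkc, for the B cell sum. It is also highest for the monocyte sum, and the platelet markers are highest in control replicate 2.

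The tested genes nearest in pattern to the summed globins were found by the root mean square difference of centred log2(normalised FPKM + 0.5) over the 6 libraries. They were Clec4n (0.130), C1qb (0.175), C1qa (0.176), Cd68 (0.180), Gm9118 (0.182), Lgals3 (0.185), Tmem176b (0.187), Id2 (0.195), Alox5ap (0.200) and Ahsg (0.205). Among the members, Hbb-bs (0.0916) and Hba-a1 (0.0929) were closest to the sum they belong to, and Bpgm (0.348) and Slc4a1 (0.353) were farthest. The distance of Slc4a1 was shaped by the added 0.5, which exceeded its level in every library but TuD replicate 3. C1qb, a complement chain made by macrophages, illustrates the likeness at 49.0, 58.5 and 54.2 normalised FPKM in controls 1 to 3, and 52.8, 87.2 and 108 in TuD libraries 1 to 3. The genes nearest to Alas2 were Rac2 (0.118), Gm10254 (0.158) and Cd68 (0.180), and those nearest to Bpgm were Gm38560 (0.0624), Tcea1 (0.0734) and H3f3a (0.0773). These values describe 6 libraries that also share depth and composition.

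**Figure D5:**
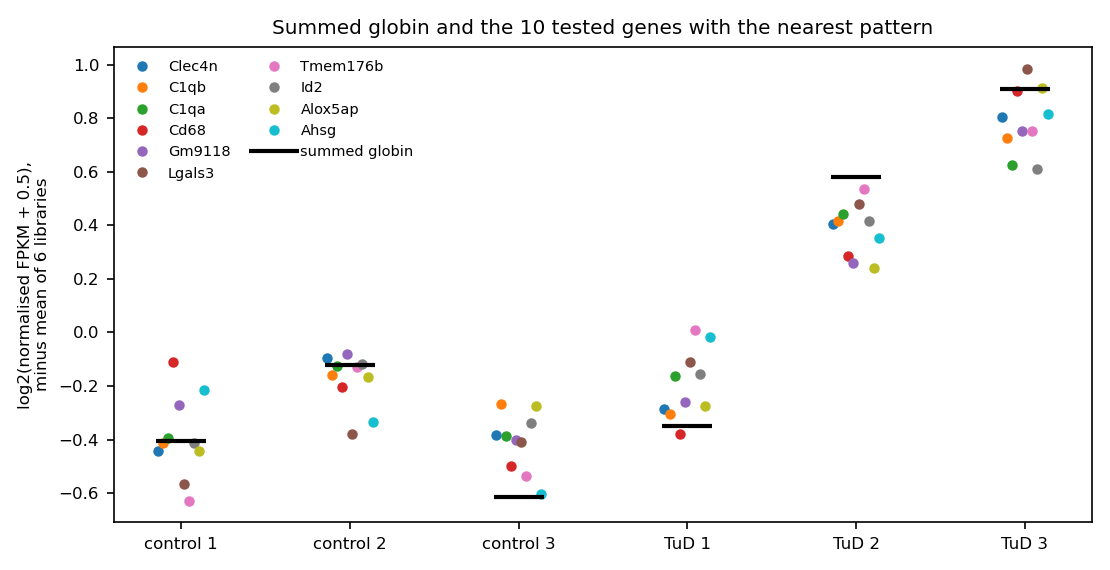
Centred log2(normalised FPKM + 0.5) of summed globin (black bars) and the 10 tested genes nearest to it (coloured points), by library on the x axis. All are highest in TuD replicate 3 and low in the controls and TuD replicate 1.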

How the data were processed

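The authors deposited FPKM for 54532 genes in 6 libraries (total RNA, NEBNext Ultra kit, per the labels). Per the submitters' processing notes the tools were HISAT2 2.0.5 and featureCounts 1.5.0-p3 with build mm10. The annotation release, the strand setting and the handling of reads matching several genes are not given in the sources used here. FPKM times gene length gave whole reads, within 0.05 of a read, for over 99.9% of values above 0 in each library, and limma-voom on those reads was an alternative. Samples were grouped by the labels alone.

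FPKM was divided by median-of-ratios size factors. Genes with FPKM of at least 1 in at least 3 libraries were fitted with limma 3.58.1 in R 4.3.3 (lmFit, eBayes with trend) on log2(normalised FPKM + 0.5), two-sided, with Benjamini-Hochberg adjustment over 10460 genes and a threshold of 0.05. Fold changes on this scale understate low genes. Ratios within libraries have no test. The method was tested on simulated data. Length and GC corrections used lowess with a span of 0.3, with GC from GENCODE M21 transcripts. Alternatives were other scalings, pseudocounts, filters, variance models, a replicate block, a covariate for Y-linked transcripts and leaving out libraries. After the data were seen, the joint length and GC correction and the removal of control 2 with TuD 3 were added.

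The members and lists were chosen with earlier results of these data known. Genes were named by a rule: all members, up to 4 tested genes of each list by p, the 10 genes nearest to summed globin and the 3 nearest to Alas2 and to Bpgm. Some list genes that the rule names are not reported here. Other list genes, the marker genes and Apex2 were named after their values were seen. All 7 members have the same coordinates in GENCODE M21 as in the deposited table. Python 3.11.15 with numpy 2.4.6, pandas 2.3.3, scipy 1.17.1 and matplotlib 3.10.9 was used.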

Additional observations from a re-analysis of the deposited data

How the results depend on the processing

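All 4 globin genes kept a positive log2 fold change in every one of the 22 alternatives run for each, but the calls did not hold throughout. The changes of filter, eBayes without trend, robust eBayes and the replicate block leave the fold change itself unaltered. Its sign was therefore fixed in those alternatives, which bear on the p-values alone. Hba-a1 kept its call in 6 and Hba-a2 in 14. For Hba-a1 the value and Benjamini-Hochberg adjusted p by limma were 0.92 (0.0514) on the deposited FPKM, 0.55 (0.188) on TPM, 0.49 (0.256) after quantile normalization, 0.91 (0.0525) with 75th percentile scaling, 0.93 without the filter (0.151), without the trend (0.0511) and with robust eBayes (0.0593), 0.50 (0.255) after length correction, 0.61 (0.203) after length and GC correction, and 0.81 (0.0849) without control 2 and TuD 3. For Hba-a2 the call was lost on TPM (0.71, 0.0731), without the filter (1.09, 0.0782), with the Y-linked covariate (1.36, 0.0553), after length correction (0.61, 0.122) and after length and GC correction (0.73, 0.0948). With limma-voom on recovered reads both were called (0.92, adjusted p = 0.0247, and 1.08, adjusted p = 0.00904). Leaving out 1 library at a time gave 0.67 to 1.29 for Hba-a1, 0.92 to 1.40 for Hba-a2, 0.31 to 0.99 for Hbb-bs, 0.35 to 0.93 for Hbb-bt, -0.079 (without TuD replicate 3) to 0.71 for Alas2 and 0.038 to 0.40 for Bpgm. On TPM, Alas2 was at -0.059 and Bpgm at -0.16. Replicate numbers are shared by the groups, but deviations of same-numbered libraries correlated at only 0.0640, 0.0885 and -0.0555, so the numbers were not taken as pairs. With the replicate block Hba-a1 was at 0.93 (adjusted p = 0.0524), and 1447 genes rose and 1195 fell. In the fit of all libraries 1550 genes rose and 1489 fell. These counts were 438 and 4202 on TPM, 989 and 947 without the filter, and 638 and 543 with the Y-linked covariate. After length and GC correction 953 rose, and leaving out 1 library gave 888 to 1703 and 742 to 1598. The fall to 888 and 742 came without control replicate 2. The Hba-a1 share of alpha was 83.8% and 82.2% in control and TuD libraries when counted in reads, which do not adjust for length. Other causes of these shifts were not tested. Depth limits Slc4a1, with 5 to 45 reads per library.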
